A study of Mus musculus with 18 samples.

Results

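The striatum of mice that received saline vehicle was followed over days 1, 7 and 21 of a drug study, with 3 mice per day. These 9 libraries were taken by their sample labels out of 18 in the series, and the other 9 came from amphetamine-treated mice of the same days. The mice were 129Sv/Jae S4 siblings, matched for age and sex and kept in groups. Saline mice had intraperitoneal injections of 0.9% saline, and the amphetamine mice had D-amphetamine hemisulfate dissolved in saline, 7 mg/kg in total per day. The labels name no engineered allele. Age, the number of saline injections before each day and the time of dissection were not given in the sources used here, and cannot be told apart from the day. Each library came from the striatum of both hemispheres, cut dorsal to the anterior commissure. PolyA RNA was sequenced, and levels were given as FPKM, mapped fragments scaled to transcript length and to library size, which can be compared between genes.

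The striatum is the main input structure of the basal ganglia and is built mostly of GABA-releasing projection neurons with spiny dendrites. Neurons of the direct pathway carry the dopamine receptor Drd1a and make the peptides substance P and dynorphin, and neurons of the indirect pathway carry Drd2 and the adenosine receptor Adora2a and make enkephalin. Both classes share a cAMP pathway in which a G protein, adenylyl cyclase and phosphodiesterases set the phosphorylation of the inhibitor protein DARPP-32. A comparison of vehicle days shows how far levels differed without the drug.

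Each saline library had between 13471 and 13805 rows at 1 FPKM or more. Relative depth, set to 1 in the deepest saline library and as low as 0.769, averaged 0.884 ± 0.107, 0.893 ± 0.098 and 0.873 ± 0.078 on days 1, 7 and 21 (SD, n = 3 each), with an exact two-sided permutation p of 0.971 over 1680 assignments, of which the smallest possible is 0.0036. The number of rows at 1 FPKM or more averaged 13692 ± 54.1, 13615 ± 126 and 13749 ± 59.2 on the 3 days (exact permutation p = 0.229, adjusted p = 0.686 over 6 library measures). The summed FPKM of day 7 replicate 3 was 682270, against 543540 to 580365 in the other 8 saline libraries. A row named DQ567485 stood at 104588 FPKM in that library and at 0 in the other 8, and without it the sum was 577682. Correlations across genes of log2 values were 0.920 to 0.939 between libraries of the same day (9 pairs) and 0.914 to 0.942 between days (27 pairs). Y-linked Ddx3y, Eif2s3y, Kdm5d and Uty were expressed in all 9 libraries, at 2.28 to 20.9 FPKM, and Xist did not pass 0.0668 FPKM.

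Several libraries differed in marker levels of other tissue and of blood, and in bulk tissue fewer cells of a type and less RNA per cell cannot be told apart. The 4 tested blood transcripts, 3 of them haemoglobin rows whose near-identical copies may share reads, summed to 165, 140.0 and 107 in day 1 mice, 160.0, 1179 and 560.0 in day 7 mice, and 197, 194 and 123 in day 21 mice (FPKM). Day 7 replicates 2 and 3 held more blood transcript than the other 7 libraries, while day 7 replicate 1 lay among them. Markers of oligodendrocytes and myelin (18 genes) summed to 1535, 2332 and 2596 in day 1 mice, 1411, 2171 and 2234 in day 7 mice, and 1703, 2149 and 2369.8 in day 21 mice (FPKM), so replicate 1 was the lowest library on each day. The 9 tested markers of cortical glutamatergic neurons, cells of the tissue above the striatum, summed to 116, 162 and 125 in day 1 mice, 112, 108 and 97.0002 in day 7 mice, and 174, 114 and 139.6 in day 21 mice (FPKM). The 5 tested markers of ependyma, the lining of the ventricle beside the striatum, summed to 12.6, 15.9 and 12.1 in day 1 mice, 6.39, 8.704 and 5.71 in day 7 mice, and 9.003, 14.4 and 23.5 in day 21 mice (FPKM), with the 3 day 7 libraries below the other 6.

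**Figure D1:**
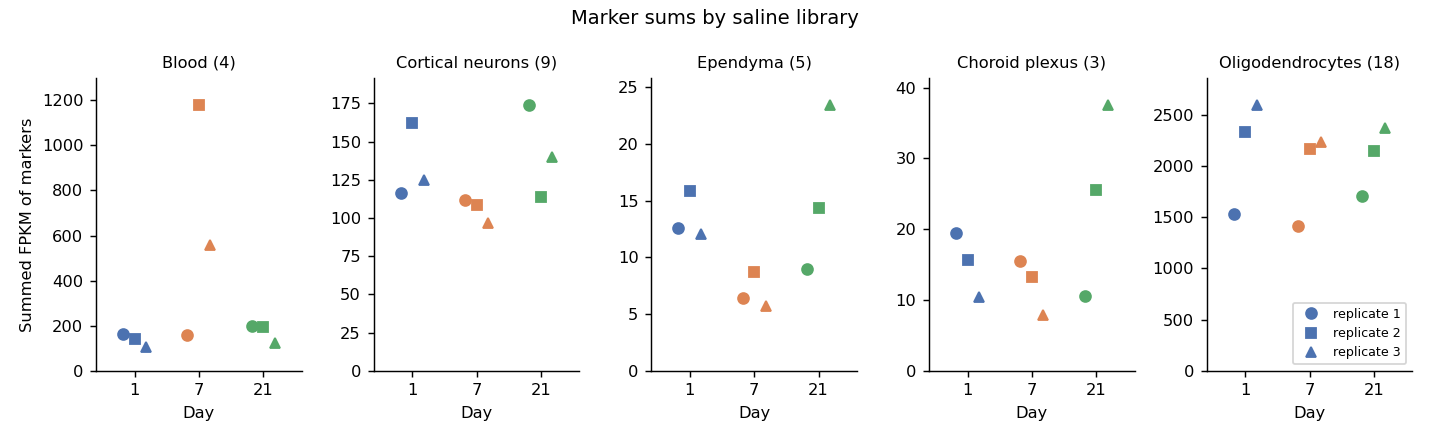
Summed FPKM (vertical axes, linear, from 0) of the tested marker genes of 5 cell types in each saline library by day; symbols give the replicate number and the number of genes stands in each panel title. Haemoglobin-rich libraries are seen on day 7 (1179 and 560.0 FPKM), ependymal sums are lowest on day 7, and replicate 1 has the lowest oligodendrocyte sum on each day.

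The baseline transcriptome was that of striatum. All 34 genes of a list of striatal identity genes were above the level filter, 21 of them with a saline mean of at least 100 FPKM, and their median level was 172 FPKM against 9.03 FPKM over all 13975 rows tested. Penk, which encodes the enkephalin precursor, averaged 1225 ± 69.6 FPKM over the 9 libraries (SD), and Ppp1r1b, which encodes DARPP-32, averaged 1136 ± 129 FPKM. Ppp3ca, the catalytic subunit of calcineurin, which dephosphorylates DARPP-32, followed at 889 ± 52.99 FPKM. Adjacent levels in this order were often closer than their spread, as for Penk and Ppp1r1b, or for Gng7 at 443 ± 34.4 FPKM and Pde1b at 442 ± 40.8 FPKM.

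The dopamine and cAMP machinery was abundant, with a median level of 110.2 FPKM over 28 tested genes. Adcy5, the main striatal adenylyl cyclase, averaged 265 ± 21.6 FPKM, and Gnal, the G protein alpha subunit that couples dopamine and adenosine receptors to it, averaged 183 ± 8.13 FPKM. The phosphodiesterase Pde10a averaged 270 ± 29.9 FPKM, close to Rasgrp2, a guanine nucleotide exchange factor of Rap1, at 245 ± 33.4 FPKM, and Rgs9, which speeds the turn-off of G protein signals, at 232 ± 30.4 FPKM. Drd1a stood at 113 ± 5.54 FPKM and Drd2 at 135 ± 16.03 FPKM, and Drd2 was the higher in every saline library except day 1 replicate 1. Most transcription factors of the lineage on the list were lower. Rarb, a retinoic acid receptor, averaged 160.4 ± 29.5 FPKM, above the mean of either dopamine receptor, while Meis2 averaged 77.2 ± 2.51 FPKM, Bcl11b 66.2 ± 4.27 FPKM, Foxp1 65.3 ± 5.43 FPKM, Foxp2 15.5 ± 1.27 FPKM and Ebf1, which marks direct pathway neurons, 4.86 ± 0.489 FPKM.

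Variation between saline mice was small for most of these genes. The coefficient of variation over the 9 libraries had a median of 9.45% over the 34 identity genes and ran from 3.25% for Meis2 to 26.3% for Cnr1, the type 1 cannabinoid receptor, with Pdyn, the dynorphin precursor, at 21.3%. Over 8530 matched protein-coding rows with a saline mean of at least 5 FPKM the median was 8.67%, and in 6928 of them the highest library was less than 1.5 times the lowest. Drd1a stood at 115, 108 and 112 FPKM in day 1 mice, 125, 119 and 109 in day 7 mice, and 108, 114 and 111 in day 21 mice, a narrow band in which the days overlapped. Penk stood at 1225, 1186 and 1192 FPKM in day 1 mice, 1221, 1367 and 1181 in day 7 mice, and 1122, 1279 and 1249.6 in day 21 mice, again with all days overlapping.

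**Figure D2:**
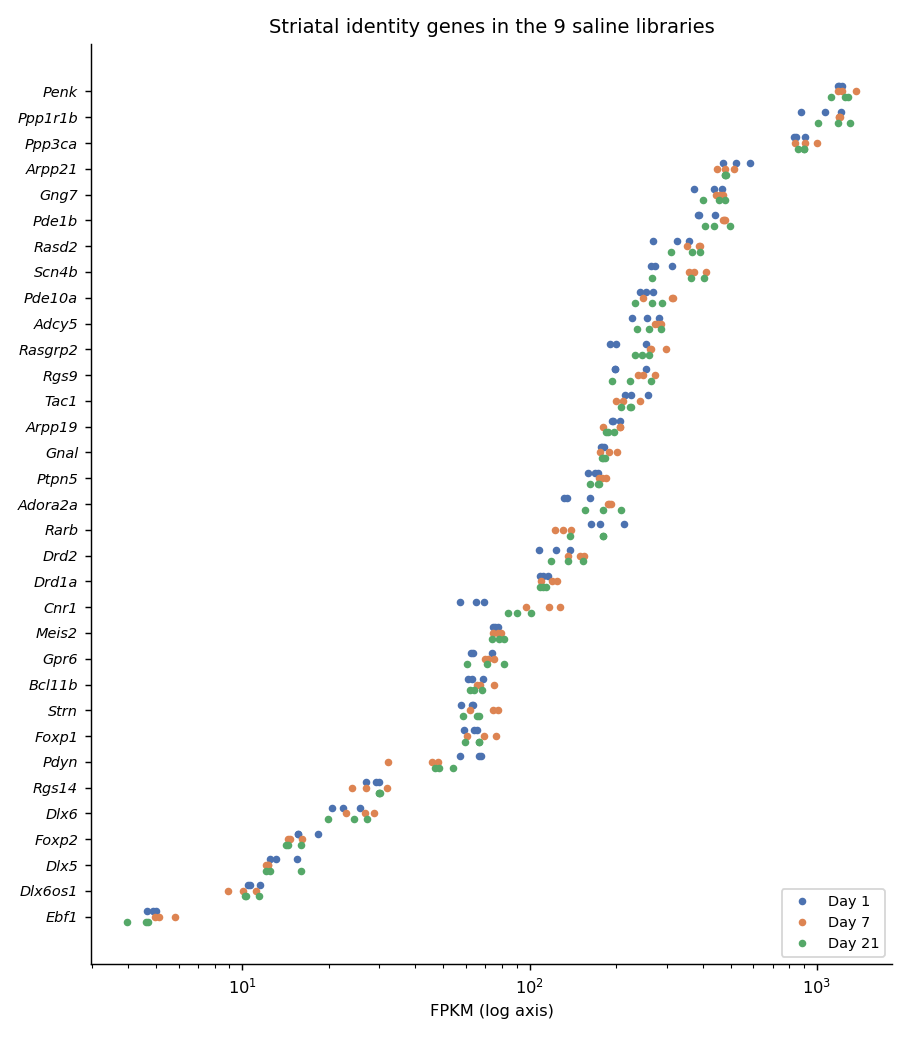
FPKM on a log axis for striatal identity genes in the 9 saline libraries, ordered by their mean; each point is a mouse and the colours give the day. Penk and Ppp1r1b lead at means of 1225 and 1136 FPKM, and the days overlap for most genes, while the day 7 points of Cnr1 lie above its day 1 points and those of Pdyn below.

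Outside the identity list, the most abundant matched protein-coding rows were Ubb (polyubiquitin, 1419 FPKM), the calmodulin gene Calm2 (1159 FPKM), Hpca (hippocalcin, a neuronal calcium sensor, 1058 FPKM) and Ckb (brain creatine kinase, 1042 FPKM). Glial products followed, with Apoe (apolipoprotein E) at 888 FPKM, Cst3 (cystatin C) at 839 FPKM and Mbp (myelin basic protein) at 838 FPKM, the last with a coefficient of variation of 22.1%. Snap25, a membrane fusion protein of nerve terminals, had the steadiest level of the 20 highest, with a coefficient of 2.42%. Of all rows, 13901 reached a saline mean of 1 FPKM, 630 reached 100 FPKM and 43 reached 1000 FPKM, and of the 43 only 6 were matched protein-coding rows. The others of those 43 were named for mitochondrial genes, short RNAs or sequence accessions.

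Rows of short RNAs held 20.3% of the summed FPKM, against 49.4% in matched protein-coding rows. The highest row named for a microRNA was Mir3064, at 9089 to 13890 FPKM in the 9 libraries. PolyA RNA libraries do not measure mature microRNAs, and the value is that of reads assigned to this row of the table. The mature products of that locus, as listed by RefSeq (GRCm38.p6, chromosome 11, minus strand), are shown to make clear how short the annotated products are, with the seed, bases 2 to 8, in capitals. They lie at chr11:106782695-106782716 (3p) and chr11:106782736-106782757 (5p).
mmu-miR-3064-3p: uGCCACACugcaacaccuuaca
mmu-miR-3064-5p: uCUGGCUGuuguggugugcaaa
Both are 22 bases long and their seeds differ.

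The first pairwise question was which transcripts differed on day 7 of saline from day 1. Cd72 was the gene that passed the test, and it was higher on day 7, 1 of 13975 rows or 0.00716%. It encodes a transmembrane receptor best known from B lymphocytes, where it restrains antigen receptor signals. Levels of Cd72 were 0.722, 1.23 and 1.297 FPKM in day 1 mice, 3.48, 3.33 and 3.05 in day 7 mice, and 2.15, 2.87 and 2.81 in day 21 mice. All day 7 mice lay above all day 1 mice, by 1.05 ± 0.13 (SE) on the log2(FPKM + 1) scale (limma adjusted p = 0.01196, 95% interval 0.78 to 1.32). At 0.722 to 3.48 FPKM the transcript was scarce.

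Day 21 mice also lay above day 1 mice for Cd72, by 0.80 ± 0.13 (SE), which did not pass (limma adjusted p = 0.183), and below day 7 mice without overlap, with a difference of −0.25 ± 0.13 (SE) (limma adjusted p = 0.9296). These contrasts use the same day 1 and day 7 mice. Over the 3 days together Cd72 was again the 1 row that passed (0.00716%, limma adjusted p = 0.0318). In amphetamine mice Cd72 averaged 2.27 ± 0.439, 2.94 ± 0.373 and 2.24 ± 0.0945 FPKM on days 1, 7 and 21 (SD, n = 3 each). The day 1 saline mean of 1.08 FPKM was the lowest of the 6 groups, and the test of the difference between the treatments' day effects did not pass (limma adjusted p = 0.652 for Cd72, and 0 of 13975 rows, 0%, in all, with 873 at an unadjusted p under 0.05).

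The Cd72 call depended on the fit. Leaving out day 7 replicate 2 or 3 gave limma adjusted p values of 0.109 and 0.0563, and leaving out any of the other 7 saline libraries kept it. With the replicate number as a block it was 0.0520, and with the 9 saline libraries alone 0.241, while the log2 difference stayed between 1.04 and 1.09 in these fits. Of 10 B lymphocyte markers chosen after the values were seen, 7 stayed under 0.2 FPKM in all 9 libraries, among them Cd79a, Cd79b and Ms4a1, and Pax5 was at 0. The others were Blnk, at 0.753 to 1.73 FPKM, Fcer2a, at 0.215 to 0.754 FPKM, and Igj, at 0.0706 to 0.346 FPKM. All 10 markers summed to 1.85, 2.34 and 2.14 FPKM in day 1 mice, 1.74, 1.79 and 1.75 in day 7 mice, and 2.32, 1.97 and 2.17 in day 21 mice. Blnk and Fcer2a together made up most of each sum, so the sums say little of the scarce markers. In day 7 replicate 1, which held 160.0 FPKM of blood transcripts against 165, 140.0 and 107 FPKM on day 1, Cd72 was at 3.48 FPKM, the highest of all. This is the value of 1 library, and the part of blood or B lymphocytes in the Cd72 difference was not tested.

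The other genes among the 10 rows with the smallest p did not pass. Gpr155, a multipass membrane protein of lysosomes that is strongly expressed in striatum, stood at 47.6, 48.3 and 51.2 FPKM in day 1 mice, 76.4, 71.1 and 62.9 in day 7 mice, and 53.3, 59.5 and 61.9 in day 21 mice, with day 7 above day 1 in all mice, by 0.50 ± 0.08 (SE) (limma adjusted p = 0.134). Cnr1, which couples to inhibitory G proteins and lowers transmitter release at striatal synapses, stood at 57.1, 69.3 and 65.2 FPKM in day 1 mice, 128, 116 and 96.8 in day 7 mice, and 84.1, 101 and 90.2 in day 21 mice. For Cnr1 the day 7 mice were above the day 1 mice without overlap, by 0.82 ± 0.14 (SE) (limma adjusted p = 0.151), and the day 21 mice lay above the day 1 mice too. Amphetamine mice had Cnr1 means of 80.7 ± 9.26, 91.7 ± 12.2 and 72.04 ± 12.6 FPKM on the 3 days.

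The rest of the 10 rows with the smallest p did not pass either. Ndfip2, an adaptor of NEDD4 ubiquitin ligases, stood at 58.8, 58.98 and 58.04 FPKM in day 1 mice, 73.4, 71.8 and 67.6 in day 7 mice, and 64.9, 65.9 and 65.3 in day 21 mice, a narrow set with day 21 between the other 2 days. Slc16a6, a monocarboxylate transporter family member, stood at 5.64, 6.17 and 5.44 FPKM in day 1 mice, 9.497, 8.49 and 7.64 in day 7 mice, and 6.96, 8.601 and 7.12 in day 21 mice. Cdk19, a kinase of the Mediator complex, stood at 21.4, 22.1 and 24.1 FPKM in day 1 mice, 28.6, 30.3 and 29.6 in day 7 mice, and 28.2, 30.8 and 31.3 in day 21 mice, and its day 7 and day 21 mice overlapped each other above day 1. Ptpn7, a tyrosine phosphatase of MAP kinases, and Wbscr17, an enzyme of protein glycosylation, were higher on day 7 than day 1 by 0.58 ± 0.11 (SE) and 0.50 ± 0.09 (SE) on the log2 scale. Nanos1, an RNA-binding translational repressor, was the 1 row of the 10 with lower values, at 12.6, 13.2 and 14.1 FPKM in day 1 mice, 10.5, 10.8 and 11.6 in day 7 mice, and 11.3, 11.1 and 11.2 in day 21 mice. The limma adjusted p of the 9 rows other than Cd72 ran from 0.134 to 0.276. With array weights, which weight each library by its spread, 10 rows passed, and Gpr155, Cnr1, Ndfip2, Slc16a6, Ptpn7 and Nanos1 were among them.

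**Figure D3:**
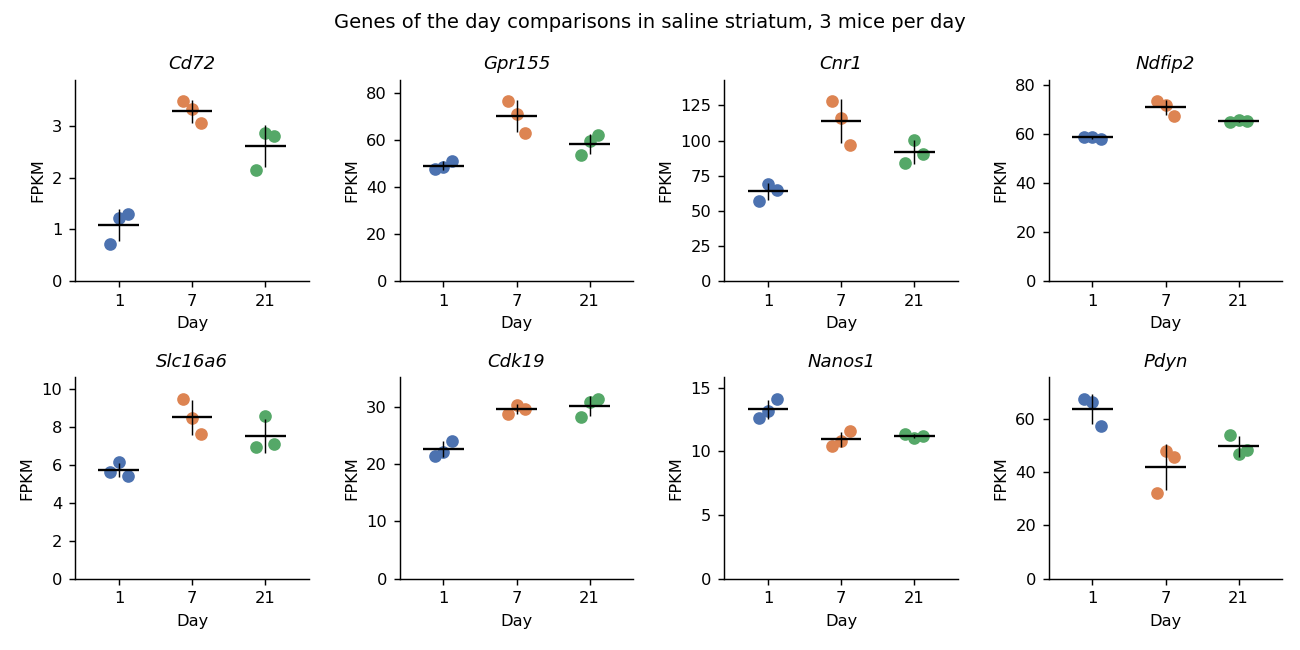
FPKM (vertical axes, linear, from 0) of 8 genes by day in saline mice; points are mice, bars the mean of 3 and thin lines 1 SD. Cd72 has all day 7 points (3.05 to 3.48) above all day 1 points (0.722 to 1.297), and Pdyn has all day 7 points (32.1 to 47.8) below all day 1 points (57.2 to 67.5).

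The promoters of Cd72, which passed, and of Gpr155 and Cnr1, striatal genes with the same shift of day 7 above day 1, are shown, a choice made after the values were seen. Each runs from 250 bases before to 50 after the RefSeq start (GRCm38.p6), read on the gene's strand. Letters in capitals match TGACG, the core of the cAMP response element, on either strand. TGANTCA (the AP-1 site) and CACGTG (an E-box) were searched likewise and had no match in these windows.
Cd72, chr4:43454577-43454876, minus strand: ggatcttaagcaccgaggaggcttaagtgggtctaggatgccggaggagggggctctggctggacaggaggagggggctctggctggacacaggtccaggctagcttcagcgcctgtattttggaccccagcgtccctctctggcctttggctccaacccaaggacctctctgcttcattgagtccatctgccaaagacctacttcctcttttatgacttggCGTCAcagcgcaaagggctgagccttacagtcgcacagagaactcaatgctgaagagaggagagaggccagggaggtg
Gpr155, chr2:73386431-73386730, minus strand: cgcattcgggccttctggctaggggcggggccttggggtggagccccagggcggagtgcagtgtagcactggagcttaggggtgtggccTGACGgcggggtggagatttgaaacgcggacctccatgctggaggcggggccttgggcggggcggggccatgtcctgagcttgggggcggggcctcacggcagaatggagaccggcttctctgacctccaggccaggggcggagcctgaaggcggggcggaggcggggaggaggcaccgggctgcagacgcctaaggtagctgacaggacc
Cnr1, chr4:33924014-33924313, plus strand: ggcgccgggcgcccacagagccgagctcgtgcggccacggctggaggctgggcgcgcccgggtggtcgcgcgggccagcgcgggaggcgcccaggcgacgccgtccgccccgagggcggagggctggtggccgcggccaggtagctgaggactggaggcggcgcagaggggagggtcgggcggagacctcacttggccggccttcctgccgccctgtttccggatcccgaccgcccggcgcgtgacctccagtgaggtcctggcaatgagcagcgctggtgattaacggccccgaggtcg
Cd72 and Gpr155 each held 1 match to TGACG and this start of Cnr1 held none. A further start of Cnr1, at chr4:33924394-33924693, held 1 match to CACGTG. Among 32851 promoter windows of the same length, 20.8% held TGACG, 7.81% TGANTCA and 7.15% CACGTG. A match is a description of letters and carries no measure of binding. The GC content was 57.7% for Cd72, 70.3% for Gpr155 and 76.3% for Cnr1.

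Without a call, the striatal identity genes leaned higher on day 7. Of 34, 25 were higher than on day 1 and 9 lower, 0 passed, and the median log2 difference was 0.11 (0.086 to 0.14 when each saline library was left out), against −0.01 over all rows tested. The 3 day 7 and 3 day 1 libraries did not overlap for 7 members with day 7 higher (4.05% of all rows) and for 3 with day 7 lower (5.24% of all rows). Besides Cnr1, Adora2a did not overlap, at 189, 187 and 191 FPKM in day 7 mice, against 132, 162 and 135 in day 1 mice. Rasgrp2 stood at 298, 261 and 263 FPKM in day 7 mice, against 191, 255 and 200.2 in day 1 mice, where the lowest day 7 mouse was just above the highest day 1 mouse. Scn4b, a sodium channel beta subunit, stood at 373, 412 and 359 FPKM in day 7 mice, against 264, 273 and 314 in day 1 mice. Pde1b, a calcium-activated phosphodiesterase, and Ptpn5, the striatum-enriched phosphatase STEP, were also among the 7, with log2 differences of 0.23 and 0.09. Dlx5, a homeobox gene of GABA neurons, Rarb and Pdyn made up the 3 that were lower.

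Pdyn, the dynorphin precursor, had lower values on both later days. It stood at 67.5, 66.4 and 57.2 FPKM in day 1 mice, 32.1, 47.8 and 45.9 in day 7 mice, and 54.05, 46.6 and 48.4 in day 21 mice, with day 7 and day 21 below day 1 in all mice and log2 differences of −0.61 ± 0.13 (SE) and −0.35 ± 0.13 (SE) (limma adjusted p = 0.301 and 0.823). Amphetamine mice averaged 55.6 ± 4.59, 64.4 ± 5.67 and 71.6 ± 5.21 FPKM of Pdyn on days 1, 7 and 21, and the difference between the day effects did not pass (limma adjusted p = 0.669, unadjusted 0.000835). Tac1, the substance P precursor of the same direct pathway neurons, stood at 259, 225 and 214 FPKM in day 1 mice, 243, 212 and 200.2 in day 7 mice, and 226, 207 and 223 in day 21 mice, with overlapping days. The 10 direct pathway genes had a median log2 difference of −0.02 for day 7 minus day 1, and the 10 indirect pathway genes 0.11, with 9 of 10 higher.

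Neuropeptides as a group were lower on day 7 than on day 1 in 12 of 14 tested genes, with a median log2 difference of −0.36 (−0.44 to −0.28 when each saline library was left out) and 0 passing. For 5 of the 14 the groups did not overlap, all with day 7 lower (5.24% of all rows). Npy, made by a class of striatal GABA interneurons, stood at 56.7, 64.5 and 68.5 FPKM in day 1 mice, 50.3, 41.9 and 52.2 in day 7 mice, and 75.4, 62.6 and 62.7 in day 21 mice. Sst, somatostatin of the same interneurons, stood at 213, 238 and 242 FPKM in day 1 mice, 201, 174 and 212 in day 7 mice, and 285, 242 and 230.0 in day 21 mice, and for both peptides day 7 lay below each of the other days. Cartpt, the CART peptide precursor, stood at 6.42, 2.56 and 4.33 FPKM in day 1 mice, 0.882, 1.39 and 1.61 in day 7 mice, and 6.11, 0.964 and 3.65 in day 21 mice, with all day 7 values under the lowest day 1 value. The day 21 minus day 1 median of the list was −0.09, with 5 of 14 higher, and it was 0.06 without day 21 replicate 2.

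Cortical and ependymal markers, of tissue beside the striatum, were lower on day 7 as well. All 9 tested cortical glutamatergic markers were lower on day 7 than on day 1, with a median of −0.34 (−0.42 to −0.19 leaving out each library). Slc17a7, the vesicular glutamate transporter of cortical neurons, stood at 4.14, 27.6 and 14.8 FPKM in day 1 mice, 10.5, 4.56 and 1.69 in day 7 mice, and 48.4, 7.42 and 19.6 in day 21 mice, with overlap between all days. Striosome and matrix are compartments of the striatum itself. Of their 13 and 11 genes, 10 and 7 were lower on day 7 than on day 1, with medians of −0.20 and −0.09 and 0 passing. The matrix list was mixed: 2 of its genes were higher on day 7 without overlap (4.05% of all rows) and 2 lower (5.24% of all rows). For striosome genes these counts were 1 and 3. Wfs1, an endoplasmic reticulum protein on the matrix list, stood at 58.3, 53.3 and 51.4 FPKM in day 1 mice, 25.5, 36.6 and 50.9 in day 7 mice, and 62.5, 46.1 and 48.9 in day 21 mice. Nnat, a neuronal proteolipid on the striosome list, stood at 52.3, 36.4 and 45.1 FPKM in day 1 mice, 21.8, 23.6 and 50.4 in day 7 mice, and 54.2, 38.5 and 45.8 in day 21 mice. All 5 ependymal markers were lower on day 7, with a median of −0.65 (−0.81 to −0.44 leaving out each library). Foxj1, the master factor of motile cilia, stood at 1.33, 2.83 and 1.22 FPKM in day 1 mice, 0.345, 0.847 and 1.07 in day 7 mice, and 0.5603, 1.95 and 3.94 in day 21 mice. Other neighbouring tissue was mixed for day 7 minus day 1. Of 13 tested markers of septal and pallidal neurons, 5 were higher and 8 lower, with a median of −0.04. Of 5 tested markers of fibroblasts and meninges, 4 were higher, with a median of 0.13, and all 3 of choroid plexus were lower, with a median of −0.24. The part of neighbouring tissue in the peptide and identity gene values was not tested.

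Genes of newborn and growing neurons had lower day 7 values. Of 9 tested genes of dividing cells and newborn neurons, 7 were lower than on day 1, 5 of them without overlap (5.24% of all rows), 0 passed, and the median was −0.33 (−0.40 to −0.32 leaving out each library). Dlx2, a homeobox gene of GABA neuron progenitors, stood at 1.998, 2.39 and 2.28 FPKM in day 1 mice, 1.004, 1.09 and 1.401 in day 7 mice, and 1.81, 1.87 and 1.81 in day 21 mice. Sox11, a factor of immature neurons, stood at 3.82, 3.84 and 3.36 FPKM in day 1 mice, 2.03, 2.96 and 2.43 in day 7 mice, and 2.89, 2.98 and 3.11 in day 21 mice. Dcx, a microtubule protein of migrating neurons, stood at 2.91, 2.51 and 2.25 FPKM in day 1 mice, 1.79, 1.82 and 1.86 in day 7 mice, and 2.61, 1.699 and 2.39 in day 21 mice. Of 19 growth-associated genes 15 were lower on day 7, with a median of −0.26 (−0.35 to −0.18 leaving out each library), and 4 of the 15 did not overlap (5.24% of all rows) and 0 passed. This list shares membership with that of dividing cells and newborn neurons, so their medians are not independent.

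The second question was what set day 21 apart from day 1. No row passed (0 of 13975, 0%, limma), and 794 had an unadjusted p under 0.05. Groups that did not overlap were found in 1005 rows with day 21 higher (7.19%) and 465 with day 21 lower (3.33%), and the median log2 difference over all rows was 0.03. The 794 were 566 higher and 228 lower, and median-of-ratios scaling gave 390 higher and 364 lower.

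Among the 10 rows with the smallest p after Cd72, Tcta, a small membrane protein, stood at 8.62, 8.07 and 9.17 FPKM in day 1 mice, 9.59, 8.88 and 9.63 in day 7 mice, and 11.2, 10.9 and 10.9 in day 21 mice, with day 21 above both other days. Ankrd27, an exchange factor of the endosomal GTPase Rab21, stood at 3.45, 4.11 and 3.64 FPKM in day 1 mice, 4.34, 4.49 and 4.48 in day 7 mice, and 5.16, 4.84 and 4.85 in day 21 mice. Haus1, a subunit of the augmin complex that nucleates microtubules, stood at 2.43, 2.35 and 2.87 FPKM in day 1 mice, 2.73, 3.01 and 2.44 in day 7 mice, and 3.98, 3.74 and 3.77 in day 21 mice. Tmem186, a mitochondrial assembly factor of complex I, stood at 6.31, 6.43 and 6.45 FPKM in day 1 mice, 6.64, 6.91 and 6.05 in day 7 mice, and 7.22, 8.29 and 7.88 in day 21 mice. Rfesd, a Rieske-type iron-sulfur protein, was lower, at 5.23, 5.097 and 6.299 FPKM in day 1 mice, 4.85, 4.52 and 3.81 in day 7 mice, and 3.86, 3.75 and 4.09 in day 21 mice. The adjusted p of these 5 rows was 0.183 or more (limma).

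The rows Dinb1 and Tcfe3 in that ranking were parts of divided genes. Dinb1 stood at 1.67, 2.34 and 2.48 FPKM in day 1 mice, 0.919, 2.18 and 1.43 in day 7 mice, and 0.00259, 0.534 and 0.0001599 in day 21 mice, and Polk, which names the same DNA polymerase gene in RefSeq, stood at 3.39, 2.28 and 1.53 in day 1 mice, 3.47, 3.02 and 3.02 in day 7 mice, and 5.46, 4.22 and 4.35 in day 21 mice (FPKM). Their sums were 5.05, 4.62 and 4.02 in day 1 mice, 4.39, 5.21 and 4.45 in day 7 mice, and 5.46, 4.76 and 4.35 in day 21 mice (FPKM), and the fitted log2 difference of day 21 minus day 1 was 0.07 for the sum, against −1.44 ± 0.26 (SE) for Dinb1 alone. Tcfe3 and Tfe3, names of 1 transcription factor of lysosomal genes, behaved alike: Tcfe3 stood at 5.98, 6.78 and 8.46 FPKM in day 1 mice, 9.38, 10.24 and 11.3 in day 7 mice, and 10.5, 9.88 and 11.3 in day 21 mice, while Tfe3 stood at 2.68, 2.595 and 0.677 in day 1 mice, 0.00586, 0.0237 and 0.00665 in day 7 mice, and 0.832, 0.299 and 0.001901 in day 21 mice. The sums ran from 8.66 to 11.3 FPKM.

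Oxidative phosphorylation subunits were slightly higher on day 21 than on day 1 in 74 of 75 nuclear genes, with 0 passing and a median log2 difference of 0.13. For 9 of the 75 the groups did not overlap with day 21 higher (7.19% of all rows), and for 0 with day 21 lower (3.33% of all rows). Ndufa2, an accessory subunit of complex I, stood at 56.5, 63.3 and 69.9 FPKM in day 1 mice, 65.96, 62.2 and 65.4 in day 7 mice, and 77.1, 73.2 and 78.4 in day 21 mice, with day 21 above both other days. Atp5j, a subunit of the ATP synthase stalk, stood at 114, 119 and 122 FPKM in day 1 mice, 130.3, 128 and 134 in day 7 mice, and 119.6, 143 and 147 in day 21 mice. Cox7b, of cytochrome oxidase, stood at 55.4, 56.7 and 58.02 FPKM in day 1 mice, 60.7, 54.4 and 55.9 in day 7 mice, and 57.5, 66.9 and 69.02 in day 21 mice. For Atp5j and Cox7b, day 21 overlapped day 1. The median was 0.10 with median-of-ratios scaling and 0.08 with quantile normalization, and leaving out each library gave 0.078 to 0.18, lowest without day 1 replicate 1. Amphetamine mice had medians of the opposite sign, at −0.09 for day 7 minus day 1, −0.11 for day 21 minus day 1 and −0.03 for day 21 minus day 7. Over all rows tested, the amphetamine medians were −0.05, −0.03 and 0.01 in the same order.

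Most glucocorticoid-responsive genes were lower on the later days than on day 1. Of 23 tested, 20 were lower on day 7 and 19 on day 21 than on day 1, with medians of −0.20 and −0.11 and 0 passing. For 2 genes on day 7 and 2 on day 21 the groups did not overlap, all lower than day 1 (5.24% and 3.33% of all rows). Summed levels were 667, 802 and 923 FPKM in day 1 mice, against 639 to 765 in the later mice. Plin4, a lipid droplet protein induced by glucocorticoids, stood at 1.24, 2.64 and 3.19 FPKM in day 1 mice, 0.507, 0.782 and 0.637 in day 7 mice, and 0.578, 0.8197 and 0.982 in day 21 mice, and all day 7 and day 21 mice were below all day 1 mice. Tsc22d3, which encodes the glucocorticoid-induced leucine zipper, stood at 26.8, 40.9 and 52.9 FPKM in day 1 mice, 22.1, 27.6 and 28.02 in day 7 mice, and 22.4, 28.5 and 27.1 in day 21 mice, with day 1 replicate 1 overlapping the later days. Day 1 replicate 1, the lowest day 1 mouse for both genes, also had the lowest oligodendrocyte sum of that day, whose part in the values was not tested. Fam107a, a stress-induced actin regulator, stood at 54.7, 50.5 and 96.4 FPKM in day 1 mice, 50.5, 63.3 and 41.5 in day 7 mice, and 48.6, 39.8 and 40.7 in day 21 mice. The day 7 median ran from −0.37 without day 1 replicate 1 to −0.07 without day 1 replicate 3. In amphetamine mice the medians of the same list were −0.29 and −0.35 for days 7 and 21 minus day 1, against −0.05 and −0.03 over all rows.

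Clock genes had medians near 0. Of 19 tested, 9 were higher and 10 lower on day 7 than on day 1, with a median of −0.02, and 13 of 19 were lower on day 21, with a median of −0.06. Per2, a repressor in the clock's feedback loop that also responds to glucocorticoids, stood at 11.2, 11.9 and 13.2 FPKM in day 1 mice, 9.12, 11.03 and 8.82 in day 7 mice, and 9.53, 7.26 and 9.32 in day 21 mice. Cry1, its partner, stood at 10.7, 9.41 and 10.4 FPKM in day 1 mice, 8.604, 9.22 and 8.48 in day 7 mice, and 8.56, 8.73 and 8.38 in day 21 mice. For both, the day 7 and day 21 mice were below the day 1 mice without overlap. Nr1d1, a nuclear receptor of the clock, stood at 34.8, 48.2 and 42.9 FPKM in day 1 mice, 47.2, 46.8 and 45.3 in day 7 mice, and 46.2, 49.8 and 46.2 in day 21 mice, with overlapping days.

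The third comparison set day 21 against day 7. No row passed (0 of 13975, 0%, limma), with 755 at an unadjusted p under 0.05. Day 21 lay above day 7 without overlap in 1045 rows (7.48%) and below it in 380 (2.72%), and the median log2 difference over all rows was 0.04. The 755 were 616 higher and 139 lower, and median-of-ratios scaling gave 401 higher and 246 lower.

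Cytosolic ribosomal protein genes were slightly higher on day 21 than on day 7 in 76 of 77 genes, with a median log2 difference of 0.18, and for 25 of the 77 the groups did not overlap, all with day 21 higher (7.48% of all rows). On day 7, 74 of 77 were below day 1, with a median of −0.13, and day 21 minus day 1 had a median of 0.05. Rpl4, of the large subunit, stood at 200.2, 209.6 and 217 FPKM in day 1 mice, 187, 179.7 and 198 in day 7 mice, and 219.6, 214 and 214 in day 21 mice. Rps7, of the small subunit, stood at 47.1, 46.9 and 51.4 FPKM in day 1 mice, 38.4, 38.3 and 43.6 in day 7 mice, and 45.5, 47.6 and 48.8 in day 21 mice, so the day 7 mice were the low group for both genes. Both other scalings kept the 3 signs, with a day 21 minus day 7 median of 0.14 under median-of-ratios scaling and 0.13 under quantile normalization, and 0 genes of the list passed in any comparison. With array weights Rps7 passed for day 7 minus day 1. The day contrast in amphetamine mice had medians of −0.17 for day 7 minus day 1 and 0.09 for day 21 minus day 7, against −0.05 and 0.01 over all rows.

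Microglial genes were higher on day 21 than on day 7 in 13 of 13 tested, 6 of them without overlap (7.48% of all rows) and 0 passing, with a median of 0.19 (0.13 to 0.23 leaving out each library), and higher than on day 1 in 12 of 13, with a median of 0.15 (0.10 to 0.21). Siglech, a sialic acid receptor of microglia, stood at 6.66, 6.17 and 4.92 FPKM in day 1 mice, 6.46, 7.08 and 5.404 in day 7 mice, and 8.05, 7.28 and 7.77 in day 21 mice. Csf1r, the receptor for the factor on which microglia survive, stood at 16.6, 18.8 and 18.7 FPKM in day 1 mice, 16.1, 18.04 and 18.6 in day 7 mice, and 18.996, 22.04 and 19.7 in day 21 mice. Cx3cr1, the fractalkine receptor, stood at 12.1, 10.6 and 11.6 FPKM in day 1 mice, 11.4, 11.3 and 10.8 in day 7 mice, and 12.8, 12.5 and 12.2 in day 21 mice. On a separate list of interferon and antigen presentation, 8 of 11 tested genes were higher on day 21 than on day 7 and 3 lower. Its median was 0.03, against 0.04 over all rows. H2-D1 of that list, a class I antigen-presenting chain, stood at 9.201, 7.96 and 10.5 FPKM in day 1 mice, 6.93, 7.71 and 9.17 in day 7 mice, and 10.5, 12.2 and 10.6 in day 21 mice. B2m, its partner chain, stood at 33.1, 22.6 and 24.6 FPKM in day 1 mice, 19.8, 22.4 and 21.3 in day 7 mice, and 26.4, 26.7 and 26.6 in day 21 mice, and for both day 21 lay above day 7 without overlap. The amphetamine mice had microglial medians of −0.03, 0.01 and 0.06 for day 7 minus day 1, day 21 minus day 1 and day 21 minus day 7. Over all rows tested, these were −0.05, −0.03 and 0.01.

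Rows led by p for day 21 minus day 7 included Snord1b, a small nucleolar RNA, at 42.7, 0 and 0 FPKM in day 1 mice, 83.6, 95.8 and 51.7 in day 7 mice, and 0, 0 and 0 in day 21 mice, and 0 in all amphetamine libraries. Such a row is listed at 0 or at a high value with little between. Rgs16, a regulator of G protein signalling, stood at 2.0998, 1.49 and 1.36 FPKM in day 1 mice, 1.15, 0.8799 and 1.02 in day 7 mice, and 2.32, 2.1004 and 1.98 in day 21 mice, with day 7 below day 21 in all mice. Cdk5rap3, a component of the UFMylation pathway, stood at 22.1, 15.2 and 14.7 FPKM in day 1 mice, 12.3, 10.9 and 7.42 in day 7 mice, and 19.6, 19.5 and 22.9 in day 21 mice, also with day 7 below day 21. Rpl36al, a ribosomal protein with a near-identical relative whose reads it may share, stood at 69.8, 64.2 and 71.03 FPKM in day 1 mice, 60.2, 58.1 and 62.4 in day 7 mice, and 75.5, 74.4 and 71.2 in day 21 mice. Gimap6, a GTPase of lymphocytes and endothelium, stood at 1.31, 1.28 and 1.56 FPKM in day 1 mice, 1.82, 1.998 and 1.695 in day 7 mice, and 1.21, 1.17 and 1.09 in day 21 mice, with day 7 highest. LPCAT4 is listed by RefSeq as a synonym of Mboat2, but a separate gene has the symbol Lpcat4, so which gene this row measures is uncertain. The row LPCAT4 stood at 0.7002 and 0.931 FPKM in day 7 replicates 1 and 2 and at effectively 0 in replicate 3, against 1.72 to 2.84 FPKM in the other 6 mice, and the sum with Mboat2 ran from 7.52 to 10.97 FPKM over the 9 libraries.

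**Figure D4:**
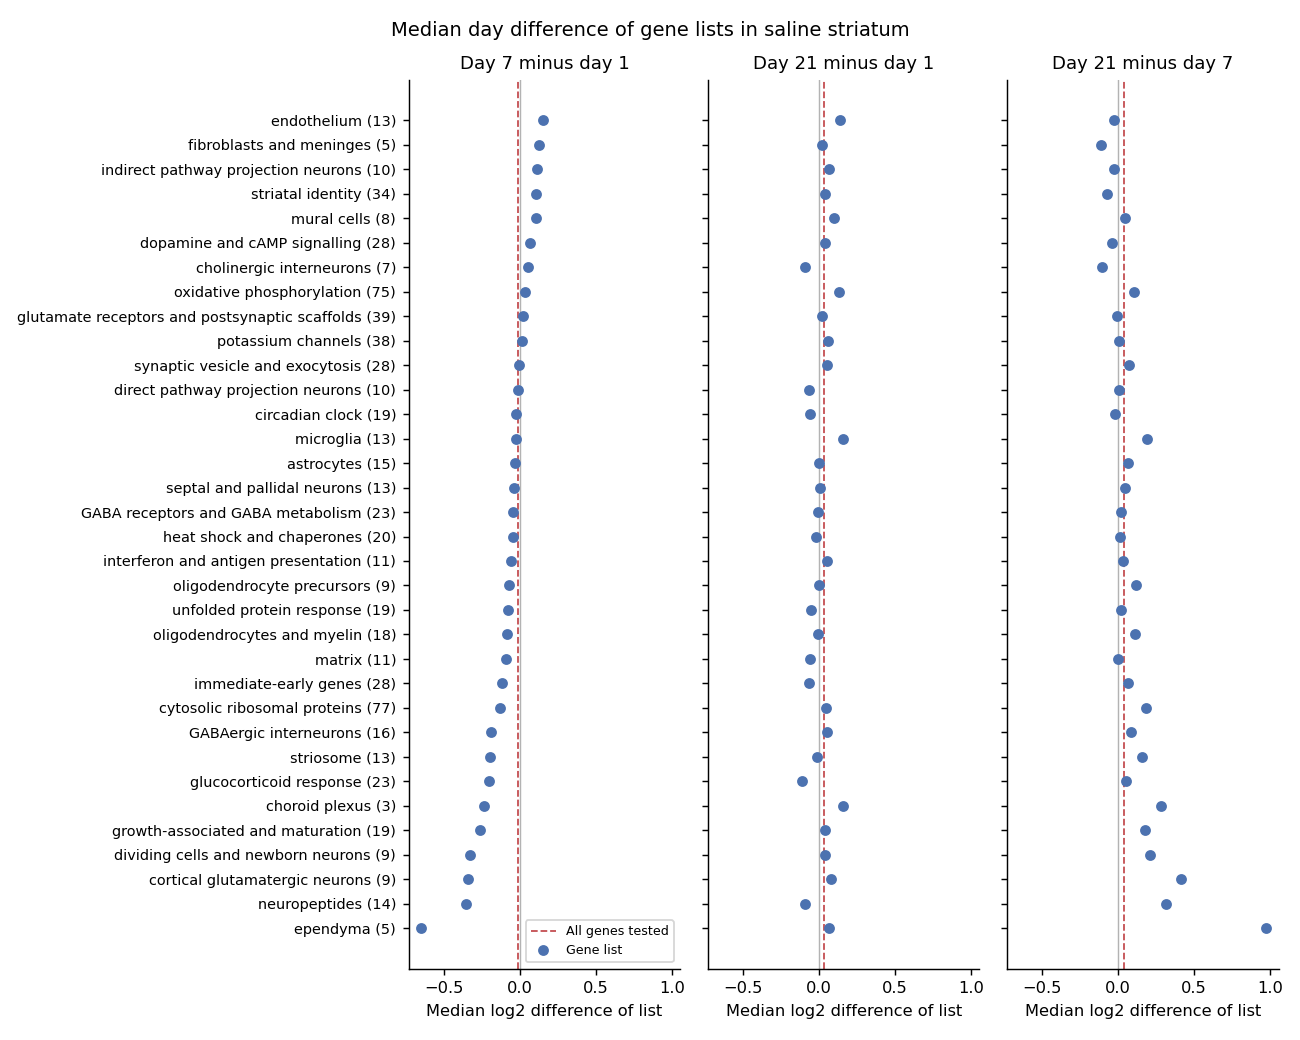
Median log2(FPKM + 1) difference (horizontal axes, shared) of 34 gene lists for the 3 saline day comparisons; the number of tested genes stands in parentheses, the dashed line is the median of all rows tested, and blood (medians 1.76, 0.20 and −1.49) and sex-linked genes are left out. Lists low on day 7 against day 1, such as neuropeptides (−0.36), ependyma (−0.65) and ribosomal proteins (−0.13), have positive medians for day 21 minus day 7, which share the day 7 mice.

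Oligodendrocyte genes were lower on day 7 than on day 1 in 16 of 18, with a median of −0.09, and higher on day 21 than on day 7 in 16 of 18, with a median of 0.11. In both comparisons the groups overlapped for all 18 genes and 0 passed, and the day 21 minus day 1 median was −0.00906. Astrocyte genes had medians of −0.03, −0.00267 and 0.06 for day 7 minus day 1, day 21 minus day 1 and day 21 minus day 7. Glutamate receptors and scaffolds (39 genes) had medians of 0.02, 0.02 and −0.00788, potassium channels (38) 0.02, 0.06 and 0.00197, and GABA genes (23) −0.04, −0.00804 and 0.02. Rgs4, which limits G protein signals in projection neurons, was the member of the dopamine list with the smallest day p, at 221, 213 and 199.5 FPKM in day 1 mice, 345, 296 and 257 in day 7 mice, and 231, 265 and 241 in day 21 mice, with both later days above day 1. Endothelial genes were higher on day 7 than on day 1 in 12 of 13, with a median of 0.15, in a comparison that held the haemoglobin-rich libraries. The median ranged over 0.049 to 0.31 when each saline library was left out, highest without day 7 replicate 1 and lowest without day 1 replicate 2. For day 21 minus day 1, which held no haemoglobin-rich library, 11 of 13 were higher and 2 lower, with a median of 0.14. The part of blood in the endothelial values was not tested. Immediate-early genes were lower on day 7 in 20 of 28, with a median of −0.12 (−0.17 to −0.078 leaving out each library). Npas4, an activity-induced transcription factor of neurons, stood at 7.22, 5.51 and 5.17 FPKM in day 1 mice, 3.27, 2.83 and 3.64 in day 7 mice, and 5.73, 8.01 and 3.46 in day 21 mice, with all day 7 mice below all day 1 mice.

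The precision of a day difference in a single row can be read from the fit. The median SE of a day difference was 0.14 on the log2 scale for rows at 1 to 5 FPKM, 0.10 for 5 to 100 FPKM and 0.10 for 100 FPKM or more, which puts a 95% interval at a median of 0.29, 0.20 and 0.22 to either side. For Penk the interval of day 7 minus day 1 was −0.15 to 0.27, for Drd1a −0.07 to 0.21 and for Ppp1r1b −0.10 to 0.48. These intervals are not adjusted for the 13975 rows tested, so a row whose interval leaves out 0 need not pass. Gpr155, with an interval of 0.33 to 0.68, did not pass.

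The rows that varied most between saline mice were ranked without regard to the day. Of the 15 with the largest SD of log2 values among rows at 5 FPKM or more, 14 were listed at 0 in at least 1 saline library. In a ranking of matched protein-coding rows made after the values were seen, 10 of 15 were paired with another row of the table. The separate genes Gdf1 and Lass1 were among them and were paired by hand, and the others shared a RefSeq symbol or synonym with their partner. Paxbp1, a chromatin adaptor in RefSeq, has the rows Gcfc1 and C21orf66. Gcfc1 stood at 0.766, 12.6 and 0.00706 FPKM in day 1 mice, 0.0115, 5.22 and 11.2 in day 7 mice, and 10.9, 14.9 and 5.95 in day 21 mice, and C21orf66 stood at 16.96, 3.88 and 16.4 FPKM in day 1 mice, 16.5, 11.7 and 4.34 in day 7 mice, and 3.798, 0.000929 and 7.44 in day 21 mice. The 2 rows traded values, and their sums had a coefficient of variation of 8.37%, against 84.5% and 72.5% for the rows. Bloc1s6, a subunit of the complex that builds lysosome-related organelles, was listed as pa at 0.0354, 8.31 and 8.77 FPKM in day 1 mice, 7.36, 8.97 and 7.51 in day 7 mice, and 0.0149, 8.31 and 0.00203 in day 21 mice, and as Pldn at 8.74, 0.0191 and 0.0201 in day 1 mice, 0.0169, 0.0206 and 0.0172 in day 7 mice, and 8.202, 0.0191 and 9.07 in day 21 mice. The pair summed to 7.38 to 9.07 FPKM in every library. Dhx15, an RNA helicase of splicing, matched the same RefSeq gene as the row mDEAH9, and their sums ran from 33.98 to 40.4 FPKM while Dhx15 alone ran from 1.45 to 29.8 FPKM. Not every pair had a steady sum: Clast2 and Syngr2, matched to 1 RefSeq gene, summed to 3.93 to 31.7 FPKM, with a coefficient of variation of 54.3%.

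Gdf1 and Lass1 are made from a shared transcript in mouse. Gdf1, a growth factor of the TGF-beta family, stood at 18.7, 0.0102 and 0.01202 FPKM in day 1 mice, 0.00925, 0.0106 and 31.7 in day 7 mice, and 0.01001, 0.0125 and 0.0101 in day 21 mice. Lass1, a ceramide synthase, stood at 0.0443, 25.9 and 23.9 FPKM in day 1 mice, 23.5, 25.5 and 2.64 in day 7 mice, and 23.3, 34.2 and 24.8 in day 21 mice. Lass1 was near 0 in the library where Gdf1 had its second highest value, and the sums ran from 18.7 to 34.4 FPKM. In all, 675 RefSeq genes matched more than 1 row, and 827 of the 13975 tested rows (5.92%) belonged to such genes. Apart from Gdf1 and Lass1, rows were joined by RefSeq symbol or synonym, so a name that is also a synonym of an unrelated gene may have been joined wrongly. Of the 26 rows named for a small p in the day comparisons, 3 were of this kind, namely Dinb1, Tcfe3 and LPCAT4.

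**Figure D5:**
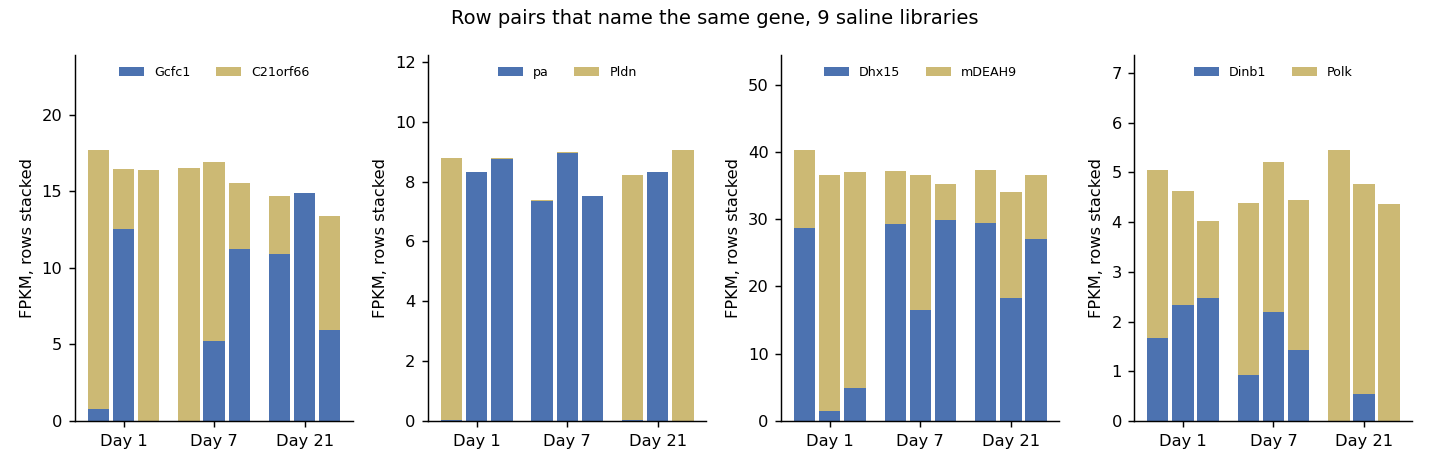
FPKM of paired rows that RefSeq assigns to 1 gene, stacked, in the 9 saline libraries (3 bars per day); bar height is the sum. The sums stay between 13.4 and 17.7 (Gcfc1 and C21orf66), 7.38 and 9.07 (pa and Pldn), 33.98 and 40.4 (Dhx15 and mDEAH9), and 4.02 and 5.46 FPKM (Dinb1 and Polk), while the share of each row changes between mice.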

How the data were processed

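PolyA RNA of striatum from 18 mice was measured, and the 9 saline libraries are described. The authors deposited FPKM, with Bowtie and mm9 named in the submitters' processing notes. Versions, the quantifying program, the annotation and strand handling were not given in those notes, so overlapping or antisense genes cannot be told apart. All 18 value columns matched a sample and 0 other columns were present. The reference at hand was of another build (GRCm38.p6). It served for gene names (12864 of 13975 tested rows matched a symbol or synonym) and for the printed RefSeq sequences, and no coordinates were converted.

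No count model was used, because FPKM are normalized values, and the absolute depth is unknown. Relative depth was read from the most frequent ratio of low values between libraries. Rows with a mean of at least 1 FPKM over the 18 libraries were tested as log2(FPKM + 1), which understates the change of a low gene. A mean per group was fitted to all 18 libraries by limma 3.58.1 (in R 4.3.3), moderated along a trend in mean level, with 12 residual and 2.26 prior degrees of freedom. P values were two-sided, adjusted by the Benjamini-Hochberg method over all 13975 rows, with a threshold of 0.05. The fit was run on simulated data, with normal values drawn independently for each row. Those data held no differences in blood or neighbouring tissue and no divided rows, so they cannot show how such features affect the calls. Library measures were tested by exact permutation over days. Replicates are separate mice per the series' design. With 3 mice against 3, a permutation p cannot go below 0.1.

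Genes are named by rule: the 10 smallest p of a comparison in which fewer than 5 rows passed, the 20 highest and the 15 most variable rows, all striatal identity genes, and up to 4 genes with the smallest day p from each of the other 35 of 36 lists. Some genes that the rule reaches are not reported here by name, in text or figures, and stay in the counts. The members and lists were chosen with earlier results of these data known. Genes given outside the rule, namely Polk, Tfe3, Mboat2, Pldn, mDEAH9, Syngr2, Xist and the B lymphocyte markers, were chosen after their values were seen, as were the protein-coding rankings. Alternatives were another pseudocount, filter, scaling, moderation, weighting, blocking and sample set, and leaving out each saline library. Figures were drawn with matplotlib (version 3.10.9).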

Additional observations from a re-analysis of the deposited data

How the results depend on the processing

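For day 7 minus day 1 (1 row passing), 0 rows passed with a mean of at least 5 FPKM, 10 with array weights, 19 with the number range in the labels' description as a factor, and 2 with the 9 saline libraries or with the 6 libraries of both days. Without day 7 replicates 2 and 3, the haemoglobin-rich libraries, an alternative chosen after seeing the data, 4 passed, among them Pdyn. This setting leaves 1 day 7 saline mouse, assumed to vary like the other groups, and its counts here rest on that library, which had the lowest Pdyn value (32.1 FPKM). The highest number range of the labels held day 1 mice only. Day 1 replicate 1 was the only saline mouse of that day outside it. With the number range as a factor, comparisons with day 1 therefore rest on that 1 mouse, and so do their counts here. For day 21 minus day 1 (0 passing) the counts were 3 with array weights, 15 with the number range, 1 with the saline libraries and 2 with the 6 libraries, and for day 21 minus day 7 (0 passing) 1, 1, 3 and 9 in the same order, and 3 without the haemoglobin-rich libraries. For the effect of day (1 passing) they were 0 with no filter, with a mean of at least 5 FPKM, with quantile normalization and with relative depth as a covariate (the last chosen after seeing the data), 3 with array weights, 16 with the number range, 3 with the saline libraries and 3 without the haemoglobin-rich libraries. For the difference between treatments (0 passing) they were 2 with the number range and 3 without the haemoglobin-rich libraries. Leaving out each saline library gave 0 to 3 rows for day 7 minus day 1, 0 to 1 for day 21 minus day 1, 0 to 1 for day 21 minus day 7, 0 to 2 for the effect of day and 0 to 2 for the difference between treatments. With array weights the rows added for day 7 minus day 1 were Slc16a6, Cnr1, Ndfip2, Gpr155, Nanos1, Ptpn7, Rps7 and the short RNAs Snord1b and Mir1949, and Dinb1, Cd72 and Mir1949 passed for day 21 minus day 1. The rows added with the saline libraries alone were short RNAs or sequence accessions, and the causes were not tested. Cd72 lay below a mean of 5 FPKM, so it was not among the rows tested with that filter.

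With the replicate number as a block, 0 rows passed for day 7 minus day 1 (lowest limma adjusted p 0.0520) and 0 for the effect of day, and the other counts of 0 did not change. Libraries with the same number deviated from their day means with correlations of −0.0293 to 0.152 across genes, so the numbers were not taken to pair the mice. The limma adjusted p of Cd72 for day 7 minus day 1 was as high as 0.697 with the 6 libraries, and Cd72 lost its call in 6 settings. Dinb1 reversed when the rows of a gene were summed, an alternative chosen after seeing the data, to 0.074 for day 21 minus day 1 and 0.042 for day 21 minus day 7, since the sum also holds Polk. Of 722 alternative values for 31 gene results, 699 kept their direction and side of the threshold. Of 1512 list medians, 147 changed sign, 7 of them where the median was 0.1 or more in size.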
